A study of Mus musculus with 12 samples.

Results

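Metals are bound, moved or released by the products of 8 genes followed here through mouse tumours: the metallothioneins Mt1 and Mt2, the ferritin chains Fth1 and Ftl1, the haem-degrading enzyme Hmox1, the iron exporter Slc40a1, the transferrin receptor Tfrc and the phagosomal metal transporter Slc11a1. They were taken by gene symbol, and all 8 of 8 symbols were found among the 19921 in each count table. The set was chosen by the level of Mt1, a leading gene of each lone treatment against control. The comparisons of a lone treatment with control therefore only describe these genes, and no p-value of a member is given for them.

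The tumours were subcutaneous grafts of Colon26, a mouse colon carcinoma line, in the right flank of wild-type BALB/c mice. Each mouse received 200000 cells, and the tumours were taken on day 10, 1 sample per mouse with 3 mice in each of 4 groups. The control group has no agent named in its labels, and a vehicle or isotype antibody is not given in the sources used here. The minP1 group received 0.08 µg of minP1, a peptide derived from the chromatin protein HMGN1 that stimulates immune cells, on day 9. The anti-PD-L1 group received 200 µg of antibody on each of days 4 and 8, directed at the checkpoint ligand PD-L1, and the combination group received both agents. The peptide was given into the peritoneum, as was the antibody. The treatment field of the combination group names only the antibody, so that group rests on the sample titles. The age of the mice is not given in the sources used here. Before RNA was taken, tumours were digested and a density step on Percoll reduced tumour cells and dead cells, so the libraries describe the remaining mixed cells.

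Metallothioneins are small cysteine-rich proteins that hold zinc and copper, and their genes are switched on by the metal-sensing factor MTF1, by glucocorticoids and by inflammatory signals. Iron enters most cells through the transferrin receptor, is stored inside ferritin shells built of heavy and light chains, and leaves through ferroportin, the product of Slc40a1. Iron regulatory proteins bind hairpins in these messages when iron is scarce. They block translation of ferritin and ferroportin from hairpins near the 5′ end and protect the Tfrc message through hairpins near its 3′ end. In tumours and spleen, macrophages that clear red cells are a main site of Hmox1, which cuts haem into biliverdin, carbon monoxide and free iron.

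The regulatory sequences of the metallothionein pair are shown because Mt1 and Mt2 lie side by side and Mt1 passed the test in the combination while Mt2 did not. The difference between the genes was tested only through their ratio. With 3 against 3 libraries that test cannot give a p under 0.1, so it could not pass and decides nothing. Mt2 (ENSMUSG00000031762.7) is at chromosome 8, 94172664 to 94173568, and Mt1 (ENSMUSG00000031765.8) starts 5514 bases beyond its end, at chromosome 8, 94179082 to 94180327, both on the plus strand of GRCm38. The stretches below come from RefSeq (build GRCm38.p6), read 5′ to 3′ on the plus strand. For each gene the 250 bases before its RefSeq start, and then the first 30 bases from that start, are given. Capitals mark every match, on either strand, to the core of the metal response element, TGCNCNC, to which MTF1 binds.
Mt1, chr8:94178839-94179088: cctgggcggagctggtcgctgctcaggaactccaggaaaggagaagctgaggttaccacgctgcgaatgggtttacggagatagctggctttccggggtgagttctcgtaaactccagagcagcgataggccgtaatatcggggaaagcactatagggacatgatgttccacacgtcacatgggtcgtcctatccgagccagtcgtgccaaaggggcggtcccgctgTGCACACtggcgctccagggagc
Mt1, chr8:94179089-94179118: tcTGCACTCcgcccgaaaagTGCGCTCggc
Mt2, chr8:94172368-94172617: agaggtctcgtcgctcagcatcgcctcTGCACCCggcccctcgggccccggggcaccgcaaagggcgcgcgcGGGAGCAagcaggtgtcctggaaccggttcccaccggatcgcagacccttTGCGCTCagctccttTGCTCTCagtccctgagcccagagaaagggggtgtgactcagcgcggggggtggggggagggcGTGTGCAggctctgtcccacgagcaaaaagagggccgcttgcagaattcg
Mt2, chr8:94172618-94172647: ggtcGTGCGCAggcccaggggcgtgtgctg

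In the full RefSeq windows, which run from 250 bases before the start to 50 after it, Mt1 held 3 matches and Mt2 held 6. At least 1 match was present in 51.0% of the 32851 promoter windows in the table, 3 or more in 7.10% and 6 or more in 0.225%. The core of the antioxidant response element, TGACNNNGC, was found once in the Mt2 window and not in that of Mt1, against 12.4% of all windows with at least 1. The window of Slc11a1 held 2 matches to the metal response core, the 2 of Tfrc held 3 and 1, and those of Fth1 and Ftl1 held none. No window of those 4 genes held the antioxidant core. Windows matched 6 of the 8 genes, and Hmox1 and Slc40a1 are named only. The annotation places other starts of both metallothionein genes further downstream, up to 152 bases for Mt1 and 242 for Mt2 from the RefSeq start. The windows end 50 bases after the RefSeq start, so bases just before those furthest starts were not searched. The match numbers of both motifs in Mt1 and Mt2 therefore hold for the RefSeq starts only, and do not compare the genes at their other starts.

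The iron regulatory hairpin is shown for the 3 genes that carry it near the 5′ end, since ferritin and ferroportin are the genes whose protein output it governs. The sequences are from the first annotated GENCODE transcript of each gene, written with T, with positions counted from its first base, and capitals mark the loop.
Fth1, bases 93 to 109 with 5 flanking bases on each side: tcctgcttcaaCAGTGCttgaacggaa
Ftl1, bases 84 to 100 with 5 flanking bases on each side: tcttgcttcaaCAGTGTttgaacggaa
Slc40a1, bases 96 to 112 with 5 flanking bases on each side: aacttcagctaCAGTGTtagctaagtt

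The pattern searched was C, 5 bases, CAGTGN and 5 bases that pair with the first 5, wobble pairs allowed. It was present in the first 200 bases of 0.0836% of 58616 protein-coding transcripts. The Tfrc transcript held 4 matches, starting at bases 3321, 3700, 3765 and 3812 of its 4890 bases, and Mt1, Mt2, Hmox1 and Slc11a1 held none. The measurements below are of RNA, and translation was not measured.

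Libraries were made from the 5′ end of each transcript and were shallow. Their totals spanned 133917 to 473273 counts, or 3.53-fold, and depth differed by group. The mean total was lowest in the combination, at 168872 counts. It was 266582 with the antibody alone, 303587 with the peptide alone and highest in control, at 378077. Every combination library (133917 to 196109 counts) was shallower than every control library (285753 to 473273), so depth and treatment changed together in that comparison. Levels are given in CPM, a gene's counts relative to those of all tested genes in the library after scaling with trimmed means of M-values, and each captured 5′ end gives 1 read, so levels of different genes are compared without a length correction. A value after ± is the SD over the 3 libraries of a group for a level, and the SE of a log2 fold change. Adjusted p-values are from edgeR's quasi-likelihood test with Benjamini-Hochberg adjustment over 5443 tested genes, and "rose" or "fell" means an adjusted p under 0.05. Leukocyte and stromal genes were detected, with 144 counts of Ptprc (CD45), 313 of the myeloid lysozyme Lyz2 and 765 of the collagen gene Col1a1 over the 12 libraries, whereas the epithelial keratin Krt8 had 2 counts and Krt18 had 9. In such mixed samples fewer cells of a type and less RNA per cell cannot be told apart.

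Of the 8 genes, 6 passed the filter on low counts. Slc40a1 had 1 count in all, in control replicate 3, and Slc11a1 had 39 counts, so neither was tested. The tested members did not move as a block: with both agents together Mt1, Hmox1 and Tfrc rose above control, Fth1 fell, and Mt2 and Ftl1 did not pass. That is 3 of 6 members higher, where 16.5% of all tested genes were called higher, and 1 of 6 lower, where 18.3% were called lower. Called genes were 34.8% of all tested in this comparison, so a single call is common in it. Groups did not overlap for 4 members that were higher, the 3 called and Ftl1, where 20.4% of all tested genes had that pattern, and for Fth1, which was lower, where 25.5% had it. The median log2 fold change was 0.92 over the 6 members and -0.06 over all tested genes. Of the 3 called higher 1 is Mt1, which was chosen for its level against the same control libraries. That choice fixed part of these counts and of this median in advance. The same 4 members passed with anti-PD-L1 replicate 1 and replicate 2 of minP1 left out, called below both libraries that stand apart. Neither belongs to the groups compared here, so that check says little about this comparison. Within it, control replicate 1 differed from the other controls by a chi-square per degree of freedom of 4.32 and 5.71. Combination replicate 3 differed from its group by 4.48 and 4.70. With any single control or combination library left out, the same 4 members passed.

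Mt1 was the most abundant of the 8 genes, with the 11th highest mean level of all 19921 symbols. Its levels in the 3 control libraries were 2270, 2146 and 3930 CPM. In minP1 they were 6837, 5181 and 5401 CPM, and in anti-PD-L1 9175, 9020 and 10959 CPM. The combination libraries held 12660, 9859 and 12859 CPM. Every treated library lay above every control, and every anti-PD-L1 library lay above every minP1 library, while anti-PD-L1 and the combination overlapped. The order of means was thus control (2782 ± 996 CPM), minP1 (5806 ± 899), anti-PD-L1 (9718 ± 1077) and combination (11792 ± 1678).

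Against control the log2 fold change of Mt1 was 1.06 ± 0.25 in minP1 and 1.80 ± 0.25 in anti-PD-L1, the values that chose the set. In the combination it was 2.08 ± 0.26, a 4.23-fold higher level, and it passed the test there. That comparison shares its control libraries with those that chose Mt1, so it is not independent evidence. The combination was above minP1 by 1.02 ± 0.25, which also passed, with no overlap between the groups. It differed from anti-PD-L1 by 0.28 ± 0.25 and did not pass. Both of these comparisons also share libraries with the choice.

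**Figure D1:**
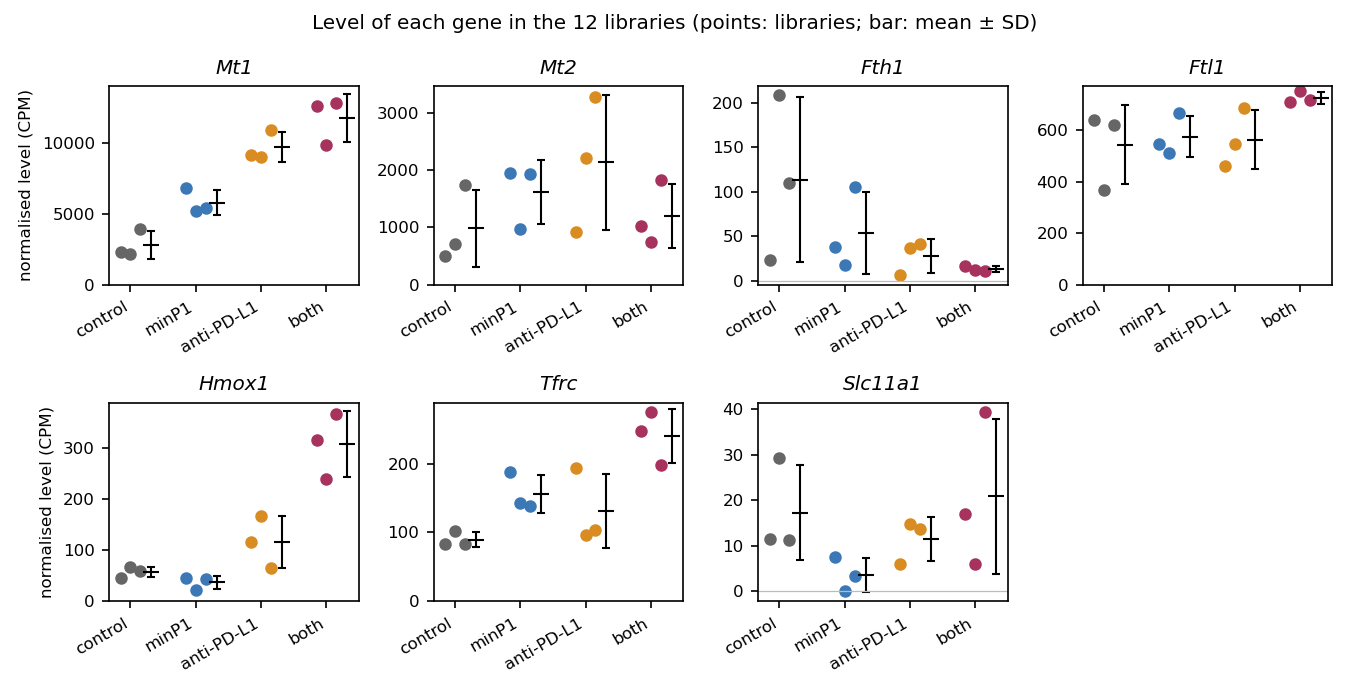
Level of 7 of the 8 genes in each of the 12 libraries, in CPM on the vertical axes, with the 4 groups on the horizontal axes; points are libraries, the bar beside them is the mean and its whiskers the SD (n = 3), "both" is the combination, and Slc40a1 (1 count in all) is not drawn. Mt1 stands lowest in control (2146 to 3930 CPM) and has its highest mean in the combination (9859 to 12859 CPM), which overlaps anti-PD-L1. Mt2 overlaps between all groups. Fth1 has its lowest mean in the combination (11.3 to 17.1 CPM), although anti-PD-L1 replicate 1 lies lower, at 6.04 CPM.

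Mt2, the partner of Mt1, encodes a protein of the same kind and is usually induced with it. Its levels in control were 492, 709 and 1747 CPM, and in minP1 1942, 967 and 1923 CPM. In anti-PD-L1 they were 913, 2202 and 3282 CPM, and in the combination 1024, 740 and 1828 CPM. The 4 groups overlapped, and the libraries of 1 group lay far apart. The order of means was control (983 ± 670 CPM), combination (1197 ± 564), minP1 (1611 ± 558) and anti-PD-L1 (2132 ± 1186), and no neighbours in that order differed beyond their spread.

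Against control the log2 fold change of Mt2 was 0.71 ± 0.41 in minP1 and 1.12 ± 0.42 in anti-PD-L1, given as a description. In the combination it was 0.28 ± 0.42 (adjusted p = 0.63). The combination differed from anti-PD-L1 by -0.83 ± 0.42 (adjusted p = 0.233). With the summed level of Bc1 and Lrrc17 as a covariate, Mt2 passed in the combination against control, at 1.55 ± 0.38 (adjusted p = 0.0051). Against anti-PD-L1 it was -0.55 ± 0.28 with that covariate and did not pass (adjusted p = 0.247). Those 2 transcripts, which take nearly equal counts in each library, stood at 14431 to 25094 CPM in control and at 24770 to 74006 CPM in the combination, and their part in the result was not tested.

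The share of the 2 metallothioneins within a library does not depend on its scaling. For each Mt1 count, control libraries held 0.217, 0.33 and 0.444 Mt2 counts, and minP1 libraries 0.284, 0.187 and 0.356. The anti-PD-L1 libraries held 0.0995, 0.244 and 0.299, and the combination libraries 0.0809, 0.0751 and 0.142. All 3 combination libraries lay under every control and every minP1 library. The log2 difference from control was -1.74 (0.0994 ± 0.0372 against 0.331 ± 0.114, n = 3 each), with an exact permutation p of 0.1, 2-sided, the smallest that 3 against 3 libraries can give, and 0.25 after Benjamini-Hochberg adjustment over the 10 ratio comparisons. The ratio used Mt1 counts, which chose the set, so it restates in part that Mt1 was high.

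Fth1, the ferritin heavy chain that oxidises iron for storage (ENSMUSG00000024661.7, chromosome 19, 9980598 to 9985098, plus strand), is usually an abundant message, but had few counts here, 190 in the 12 libraries, and ranked 3275 of 19921 symbols by mean level. How its reads were counted is not given in the sources used here. Control libraries held 8, 57 and 49 counts, and minP1 libraries 10, 5 and 32. The anti-PD-L1 libraries held 1, 10 and 12 counts and the combination libraries 2, 2 and 2. On the CPM scale control stood at 22.9, 208 and 110 and the combination at 17.1, 11.9 and 11.3. The combination lay under every control, although control replicate 1 came close to it, and the control libraries lay far apart.

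In the combination Fth1 fell, with a log2 fold change of -3.04 ± 0.80 (adjusted p = 0.00548). Without control replicate 2, the highest library, it was -2.32 ± 0.80 and still passed (adjusted p = 0.0348). From summed counts, 6 in the combination and 114 in control, the ratio was 0.118 with a 95% exact counting interval of 0.0424 to 0.264. That interval covers counting error only and leaves out the spread between mice. Against control the descriptive values were -1.01 ± 0.54 in minP1 and -1.83 ± 0.61 in anti-PD-L1. The combination did not pass against minP1 (-2.04 ± 0.89, adjusted p = 0.104), although it passed there in 4 of 19 alternatives, among them without minP1 replicate 2 (-2.40 ± 0.80, adjusted p = 0.0294), and without minP1 replicate 3 it was -1.04 ± 0.95. It did not pass against anti-PD-L1 (-1.22 ± 0.99, adjusted p = 0.48) either. With the Bc1 and Lrrc17 level as a covariate the difference from control was -1.58 ± 0.89 (adjusted p = 0.241), which ends the call. In a fit of the control and combination libraries alone Fth1 had too few counts to be tested.

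Ftl1, the ferritin light chain that helps iron settle in the shell (ENSMUSG00000050708.16, chromosome 7, 45457944 to 45459884, minus strand), was far more abundant at 1846 counts. Control libraries stood at 641, 366 and 620 CPM, and minP1 at 546, 513 and 665 CPM. The anti-PD-L1 libraries stood at 459, 545 and 685 CPM and the combination at 709, 752 and 717 CPM. The 3 combination libraries were the highest of all 12 and close together (726 ± 23.1 CPM), while the other groups overlapped. The size of the difference from control was small (0.41 ± 0.24, adjusted p = 0.187), and neither the difference from minP1 (0.34 ± 0.24, adjusted p = 0.337) nor that from anti-PD-L1 (0.36 ± 0.24, adjusted p = 0.387) passed.

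For each Ftl1 count the control libraries held 0.0357, 0.57 and 0.177 Fth1 counts and the combination libraries 0.0241, 0.0159 and 0.0157. The log2 difference was -3.07, with an exact permutation p of 0.1, 2-sided, and 0.25 after adjustment over the 10 ratio comparisons. Of the 25-base windows in the first 100 bases of the Ftl1 transcript, 18 of 76 also occur in the transcripts of Ftl1-ps1, a ferritin pseudogene, so Ftl1 counts may hold or lack reads of that copy. For the other 7 genes none of the 76 windows occurred in annotated transcripts of another gene. Copies outside the annotated transcripts were not searched, and the counting of reads that match several places is not given in the sources used here.

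**Figure D2:**
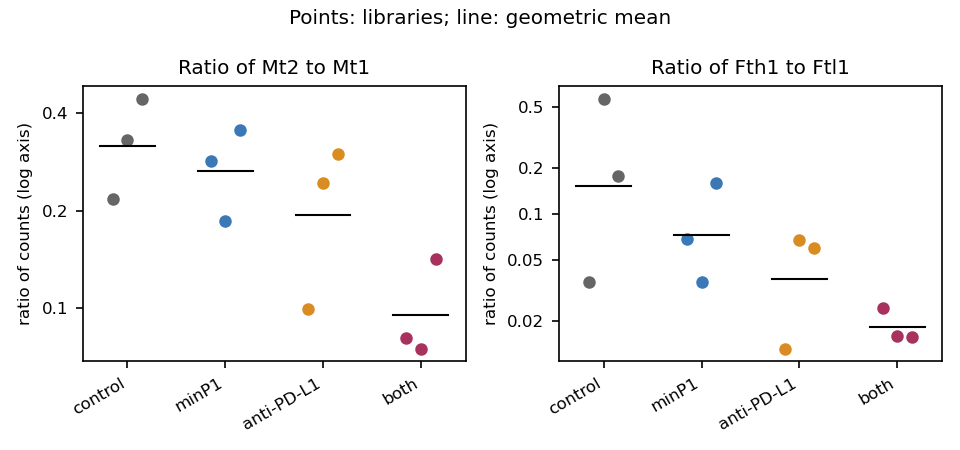
Ratio of Mt2 to Mt1 counts (left) and of Fth1 to Ftl1 counts (right) in each library on log vertical axes, by group; points are libraries and lines geometric means (n = 3), and "both" is the combination. The combination libraries lie under every control library in both panels, at 0.0751 to 0.142 on the left and 0.0157 to 0.0241 on the right.

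Hmox1, haem oxygenase 1 (ENSMUSG00000005413.8, chromosome 8, 75093621 to 75100589, plus strand), was the member with the greatest fold rise in the combination. Control libraries stood at 45.8, 65.8 and 58.2 CPM, and minP1 libraries at 45.2, 22 and 42.8 CPM. The anti-PD-L1 libraries stood at 115, 167 and 65.4 CPM and the combination at 316, 239 and 367 CPM. Every combination library lay above all 9 others, and every minP1 library lay under every control, the closest pair being 45.2 and 45.8 CPM. The anti-PD-L1 libraries were spread, and replicate 3 lay within the control range.

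In the combination Hmox1 was 5.42-fold above control (2.44 ± 0.33, adjusted p = 1.08e-05). It was 3.05 ± 0.36 above minP1 (adjusted p = 1.11e-05) and 1.41 ± 0.32 above anti-PD-L1 (adjusted p = 0.00923). The last of these calls was lost without anti-PD-L1 replicate 3, where the difference was 1.10 ± 0.33 (adjusted p = 0.0832). Against control the descriptive values were -0.61 ± 0.39 in minP1 and 1.03 ± 0.34 in anti-PD-L1. Markers of macrophages moved with it in part: of 8 tested, 5 rose, among them Apoe (2.83 ± 0.33), Lyz2 fell (-1.36 ± 0.36, adjusted p = 0.00558), and C1qa (0.71 ± 0.34) and C1qb (-0.48 ± 0.42) did not pass. The summed level of that list was 1171 to 1375 CPM in control, 956 to 1386 with minP1, 1116 to 1735 with anti-PD-L1 and 2250 to 4704 with both, with 12 of its 14 genes matched and none of the 12 at 0. Their part in the Hmox1 result was not tested.

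Tfrc, the receptor that brings transferrin-bound iron into cells (ENSMUSG00000022797.16, chromosome 16, 32608920 to 32632794, plus strand), stood at 83, 102 and 82.9 CPM in control. In minP1 it stood at 188, 143 and 138 CPM, in anti-PD-L1 at 193, 96.4 and 103 CPM, and in the combination at 248, 275 and 197 CPM. The combination libraries were the 3 highest, the lowest of them by a small margin, and the minP1 libraries lay above every control. Of the anti-PD-L1 libraries 1 reached the minP1 range, while the others lay at the control level or just above it.

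Tfrc rose in the combination by 1.43 ± 0.29 (2.69-fold, adjusted p = 0.000748). It did not pass against minP1 (0.61 ± 0.28, adjusted p = 0.126) or against anti-PD-L1 (0.92 ± 0.30, adjusted p = 0.0575). The combination lay above both groups without overlap, as did 16.6% of all tested genes against minP1 and 12.4% against anti-PD-L1. Without anti-PD-L1 replicate 1, the highest of its group, the difference from anti-PD-L1 was 1.28 ± 0.31 and passed (adjusted p = 0.0109). The descriptive differences from control were 0.81 ± 0.29 in minP1 and 0.51 ± 0.30 in anti-PD-L1. Of 14 tested cell cycle genes 4 fell in the combination and 0 rose, where 18.3% of all tested genes fell and 16.5% rose, with the proliferation antigen gene Mki67 at -2.90 ± 0.45, the topoisomerase gene Top2a at -1.37 ± 0.28 and the nucleotide reductase gene Rrm2 at -1.20 ± 0.37. The replication genes Mcm5 (0.72 ± 0.29) and Mcm2 (0.63 ± 0.40) lay the other way and did not pass. The part of cell division in the Tfrc result was not tested. The summed level of that list was 2340 to 2965 CPM in control and 1885 to 2262 CPM in the combination.

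Slc40a1, which encodes ferroportin (ENSMUSG00000025993.10, chromosome 1, 45908068 to 45926523, minus strand), was near the limit of detection. The count of 0 in a whole group allows a level of up to 3.29 CPM for minP1, 3.75 for anti-PD-L1 and 5.92 for both agents, taking 3 of the group's total counts as the limit of counting error. No difference was detectable at this depth. Slc11a1, which moves iron and manganese out of the phagosome (ENSMUSG00000026177.11, chromosome 1, 74375195 to 74386062, plus strand), had 17 control counts, 3 with minP1, 9 with anti-PD-L1 and 10 with both. BALB/c is a strain known to carry the inactive form of this transporter. The ratio to control from these counts was 0.22 for minP1 (95% exact counting interval 0.0413 to 0.76), 0.751 for anti-PD-L1 (0.295 to 1.78) and 1.32 for both (0.539 to 3.05). Intervals and limits here cover counting error only and leave out the spread between mice. No molecular identifiers are recorded.

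**Figure D3:**
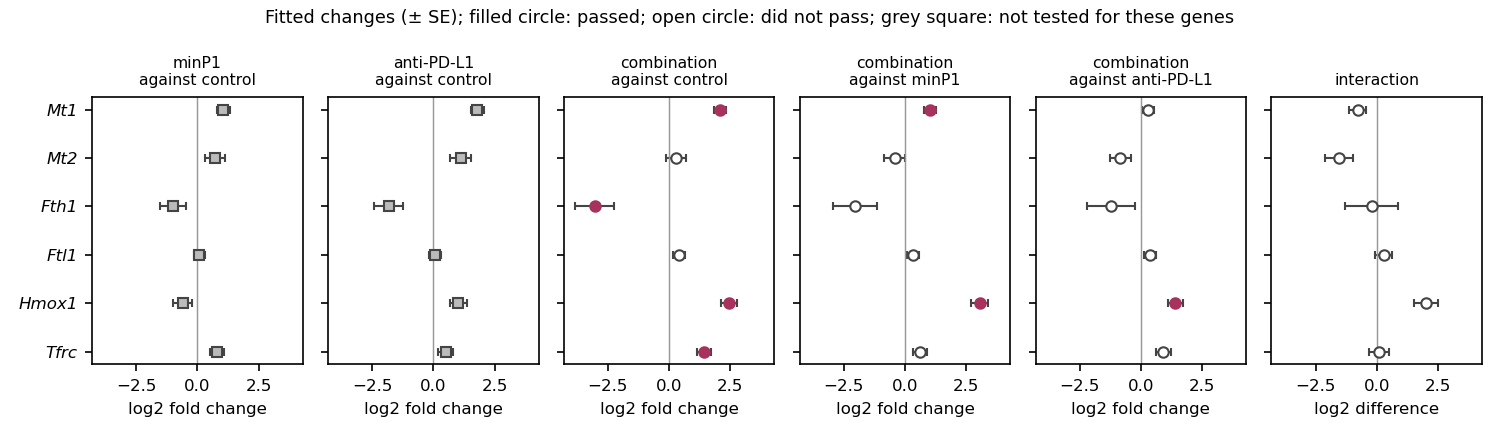
Fitted log2 fold change of the 6 tested genes (horizontal axes, whiskers ± SE) in 5 comparisons and the interaction; filled circles passed the test, open circles did not, and grey squares are the comparisons that chose the set, shown with no test. Mt1, Hmox1 and Tfrc lie to the right and Fth1 to the left in the combination against control, at 2.08, 2.44, 1.43 and -3.04.

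Set against the lone treatments, 2 of 6 members were called in the combination against minP1 (Mt1 and Hmox1, both higher), where 9.19% of all tested genes were called higher and 10.8% lower (20% in all). Against anti-PD-L1 it was 1 of 6, Hmox1, where 2.99% were called higher and 3.95% lower (6.94% in all). Groups did not overlap for 4 higher members against minP1 (Ftl1, Hmox1, Mt1 and Tfrc), a pattern of 16.6% of all tested genes. Fth1 was lower there without overlap, as were 20.9% of all tested genes. Against anti-PD-L1 it was 3 higher members (Ftl1, Hmox1 and Tfrc), where 12.4% had that pattern. In the comparisons that chose the set, edgeR called 0 of 6 members in minP1, where it called 0% of all tested genes. Of all tested genes 383 had an unadjusted p under 0.05 there with edgeR, and DESeq2 called 0 members. In minP1 groups did not overlap for 2 higher members, Mt1 and Tfrc, where 5.7% of all tested genes had that pattern, and for 1 lower member, Hmox1, where 6.69% had it. In anti-PD-L1 edgeR called 1, which is Mt1, the gene whose level there chose the set. Of all tested genes 0.551% were called higher there and 0.57% lower (1.12% in all). Nothing is read from the counts in the lone treatments.

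The interaction subtracts the difference between minP1 and control from that between the combination and anti-PD-L1 and asks whether the peptide acted differently with the antibody present. No member passed it with edgeR (0 of 6, with 0% of all tested genes called and 600 genes at an unadjusted p under 0.05). Hmox1, Mt1 and Mt2 were the members at an unadjusted p under 0.05, and DESeq2 called 0 members. Mt1 was chosen for its level in both lone treatments, which enter this comparison. Part of its negative value here was therefore fixed in advance, and nothing is read from it. The values were 2.02 ± 0.50 for Hmox1 (adjusted p = 0.181), -1.54 ± 0.59 for Mt2 (adjusted p = 0.344) and -0.78 ± 0.35 for Mt1. With the Bc1 and Lrrc17 level as a covariate 2 members passed, Hmox1 (2.08 ± 0.46, adjusted p = 0.0265) and Mt2 (-1.66 ± 0.39, adjusted p = 0.0302).

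Other genes of metal and haem handling were counted in lists written with earlier results of these data known, and each list's median log2 fold change is set against -0.06 over all tested genes, of which 16.5% rose and 18.3% fell. In the combination against control 2 of 6 tested iron transport genes rose and 0 fell (19 of 21 listed genes are in the tables, median 0.62). Slc39a14, a zinc and iron importer induced in inflammation, went from 183 ± 74.5 to 629 ± 120 CPM (1.77 ± 0.27, adjusted p = 4.43e-05). Cp, the iron-oxidising plasma protein ceruloplasmin, rose from 32.4 ± 9.07 to 66.6 ± 14.8 CPM (adjusted p = 0.0471), and the metalloreductase Steap2 was at 0.64 ± 0.28 (adjusted p = 0.0761). Of 7 tested genes of iron storage and sensing, 3 rose and 0 fell (11 of 12 in the tables, median 0.44). They were the iron chaperone Pcbp2 (1.35 ± 0.26), the mitochondrial iron importer Slc25a28 (1.68 ± 0.33) and Fbxl5 (1.48 ± 0.33), the iron-sensing ligase subunit that marks an iron regulatory protein for breakdown.

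Haem genes gave 1 rise among 6 tested (18 of 20 in the tables, median 0.03). Alas1, the rate-limiting enzyme of haem synthesis in non-erythroid cells, stood at 13.4 ± 1.90 CPM in control, 31.9 ± 3.79 with minP1, 33.8 ± 21.7 with anti-PD-L1 and 118 ± 20.7 with both (3.11 ± 0.44, adjusted p = 1.99e-05, edgeR). Alas1 also passed against minP1 (1.86 ± 0.40, adjusted p = 0.0024) and against anti-PD-L1 (1.72 ± 0.41, adjusted p = 0.0129). Cpox, a later enzyme of that pathway, was at -0.53 ± 0.37 and did not pass.

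Of 12 tested zinc and copper genes, 3 rose and 1 fell (24 of 25 in the tables, median 0.39). Mtf1, which encodes the metal-sensing factor MTF1, went from 27.6 ± 10.4 to 102 ± 0.541 CPM (1.91 ± 0.39, adjusted p = 0.000637). It also passed against both lone treatments (1.82 ± 0.40 above minP1 and 1.32 ± 0.39 above anti-PD-L1, edgeR). Binding of MTF1 to the motif matches printed above was not measured. The zinc channel Slc39a7 rose by 1.06 ± 0.25 and the copper importer Slc31a1 by 1.07 ± 0.36, while the copper chaperone Atox1 fell by 1.28 (SE 0.44).

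Among 15 tested genes of the NRF2 pathway, which answers oxidative stress and is a known inducer of Hmox1 and ferritin, 6 rose and 1 fell (20 of 21 in the tables, median 0.30). Nfe2l2, which encodes NRF2 itself, rose from 200 ± 34.3 to 555 ± 140.1 CPM (1.46 ± 0.26, adjusted p = 0.000178), and its small partner Mafk by 1.67 ± 0.37. Txn1, thioredoxin, fell from 349 ± 65.8 to 93.5 ± 61.2 CPM (-1.84 ± 0.33, adjusted p = 0.000235). Of 9 tested glucocorticoid targets 2 rose and 1 fell (12 of 12 in the tables, median 0.06): Tsc22d3 rose by 0.92 ± 0.25, Sgk1 by 0.90 ± 0.25, and Klf9 fell by 2.55 (SE 0.58).

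**Figure D4:**
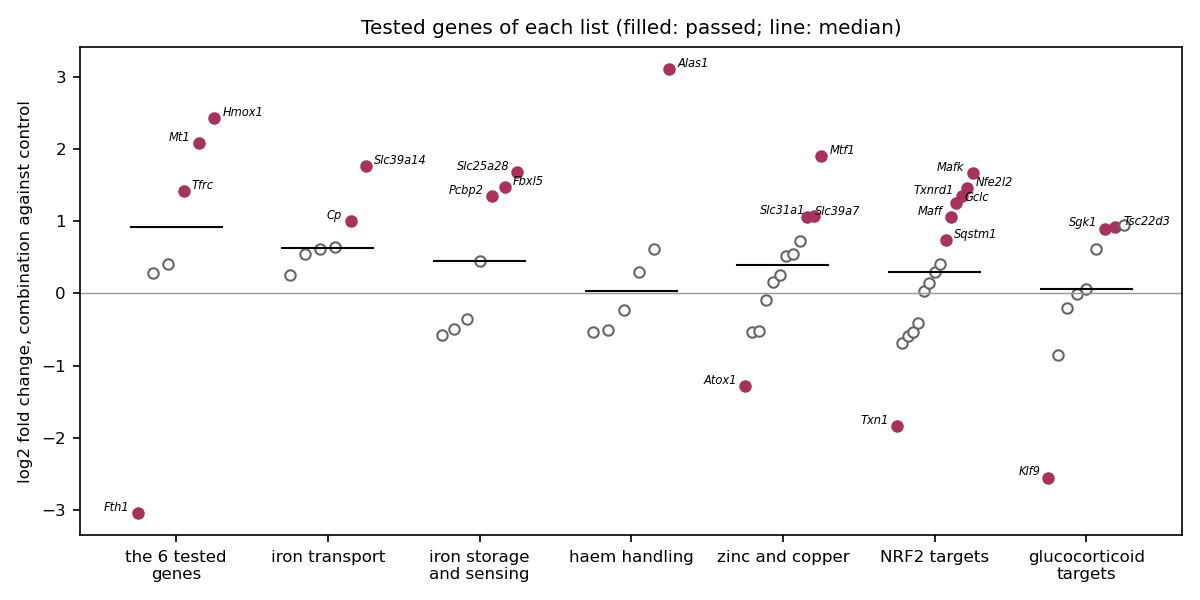
Log2 fold change in the combination against control (vertical axis) of each tested gene of the 6 members and of the 6 lists (horizontal axis); filled points passed the test and are named, open points did not, and lines are medians. Medians run from 0.03 for haem handling to 0.92 for the 6 members, and each list holds genes on both sides of 0 except iron transport. The 6 members include Mt1, which chose the set.

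Genes with the pattern most like that of Mt1 over the 12 libraries, by Pearson's r of log2(CPM + 1) among the tested genes, were AA467197 (0.96), the nonclassical class I gene H2-T22 (0.94), the arrestin-domain gene Arrdc3 (0.94), the glucose transporter Slc2a1 (0.94) and the IL-33 receptor gene Il1rl1 (0.94). For Fth1 they were the elongation factor subunit Eef1b2 (0.94), the acetyltransferase Kat6a (0.93), Nufip2 (0.93), the spectrin gene Sptan1 (0.91) and Gm32856 (0.91). Among the members themselves r ran from -0.63 for Fth1 with Tfrc to 0.66 for Mt1 with Hmox1 and with Tfrc, and Mt1 with Mt2 gave 0.50. These are descriptions over libraries that share their groups, depth and scaling.

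Summed levels of other cell type markers differed in part between control and the combination, and their part in the results above was not tested. Summed neutrophil markers (9 of 11 genes matched) stood at 325 to 386 CPM in control and 615 to 691 CPM in the combination. With either agent alone they lay under every control, at 245 to 308 CPM in minP1 and 238 to 319 CPM in anti-PD-L1. The median log2 fold change of the 5 tested ones was nonetheless above 0, at 0.09 in minP1 and 1.15 in anti-PD-L1. Only Cxcr2 was called in these comparisons, lower with anti-PD-L1. Of 5 tested neutrophil markers 4 rose in the combination and Cxcr2 fell (-1.16 ± 0.26, adjusted p = 0.0017). Monocyte markers (6 of 7) stood at 980 to 1041 CPM in control, 1103 to 1390 in minP1, 1330 to 1708 in anti-PD-L1 and 1552 to 1818 in the combination. T and NK cell markers (11 of 12) stood at 58.5 to 130 CPM in control, 132 to 172 in minP1, 119 to 199 in anti-PD-L1 and 203 to 290 in the combination. B cell markers (5 of 7) stood at 7.31 to 17.2, 16.5 to 65.9, 20.7 to 60.4 and 41.8 to 45.1 CPM in that order. The B cell sums rest on 12 counts in control and 20 in the combination. Of the T and NK cell markers only 2 had enough counts to be tested in the combination against control. Thy1, which is also on the fibroblast list, rose (1.65 ± 0.37) and Gzma did not pass (0.34 ± 0.47). Erythroid markers (10 of 12), which matter for haem and iron, stood at 1414 to 2812 CPM in control and 869 to 2280 CPM in the combination, where the beta-globins Hbb-b1 (-4.09 ± 0.64) and Hbb-b2 (-5.26 ± 0.82) fell and the alpha-globins Hba-a1 (-0.49 ± 0.42) and Hba-a2 (-0.42 ± 0.45) did not pass. Fibroblast markers (10 of 10) overlapped at 982 to 1404 and 818 to 1366 CPM. Carcinoma (8 of 11), endothelial (7 of 7) and hepatocyte with adipocyte (3 of 7) markers reached at most 76.8 CPM in any library. Each matched marker had at least 1 count in the 12 libraries.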

How the data were processed

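Total cells of 12 Colon26 tumours were profiled as 5′-end tag libraries of amplified polyadenylated RNA on an Ion S5 sequencer, per the labels' protocols. The deposited values are raw counts for each gene symbol in each sample, whole numbers without normalization as the authors deposited them. Bowtie2 2.2.5, R 3.6.1, DESeq2 and mm10 are named, without roles, per the submitters' processing notes. How reads were counted, by strand or where they match several genes, is not given in the sources used here.

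Counts were filtered with filterByExpr of edgeR 4.0.16 (R 4.3.3), which kept 5443 of 19921 symbols holding 89.8% to 93.6% of each library's counts, scaled with trimmed means of M-values, and tested with edgeR's quasi-likelihood test with 1 mean per group over all 12 libraries, at an adjusted p under 0.05. The biological coefficient of variation was 22.5%. SEs are the log2 fold change divided by the root of the F statistic, with a prior count of 0.125. The code was tested on simulated counts. Alternatives were RLE scaling, DESeq2 1.42.0, no filter, fewer groups, each library left out, a replicate block, a covariate and equal depth of 133917 counts.

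Members and lists were chosen with earlier results of these data known. Named are all 8 members, up to 3 genes of each pathway list by smallest p in the combination against control, and the 5 genes most like Mt1 and Fth1; 1 gene that this rule names is not reported here. Genes of a list named beyond these 3 (Atox1, Mcm2, Mcm5) and single markers were chosen after their values were seen.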

Additional observations from a re-analysis of the deposited data

Results flagged for a closer look

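Hmox1 stood out because its libraries lay on opposite sides with the peptide alone and with the peptide added to the antibody: all 3 minP1 libraries (22 to 45.2 CPM) lay under every control library (45.8 to 65.8 CPM), and all 3 combination libraries (239 to 367 CPM) lay above every anti-PD-L1 library (65.4 to 167 CPM). The difference between the 2 changes was 2.02 on the log2 scale and did not pass edgeR's interaction test (SE 0.50, adjusted p = 0.181). Over 19 alternatives it ran from 1.71 to 2.41, and the adjusted p was between 0.0265 and 0.442. Of all tested genes 6.69% lay lower in minP1 than in control without overlap, and 12.4% lay higher in the combination than in anti-PD-L1. The control and minP1 libraries hold 6 to 26 counts of Hmox1 each.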

How the results depend on the processing

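In the combination against control, Mt1, Hmox1 and Tfrc passed in all 20 alternatives and Fth1 in 18 of 19. In the combination against minP1, Mt1 and Hmox1 passed in all 20, and Fth1 in 4 of 19: without a filter (-2.10, adjusted p = 0.0126), with the replicate block, without minP1 replicate 2, and without both libraries that stand apart (-2.40, adjusted p = 0.0245). In the lone treatments, whose Mt1 values chose the set, counts are a description. Members called in minP1 against control numbered 0, and 1 without a filter and with the Bc1 and Lrrc17 covariate (0 to 1 with a library left out). In anti-PD-L1 against control 1 was called, against 3 without a filter, 2 with the covariate, 2 without both libraries that stand apart (1 to 2 with a library left out). In the combination against anti-PD-L1 1 was called, against 2 without a filter and 3 without both libraries that stand apart (0 to 2 with a library left out). The interaction gave 0, against 1 without a filter, 2 with the covariate and 1 without both libraries that stand apart. Over all tested genes, calls moved from 1892 to 774 (combination against control), 1088 to 586 (against minP1) and 61 to 29 (anti-PD-L1 against control) with the covariate, and to 1052, 702 and 27 at equal depth, where 2803 genes in place of 5443 were tested. For anti-PD-L1 against control the count ran from 1 (without control replicate 2) to 169 with a library left out, was 167 without a filter and 126 in a fit of those groups, and for the combination against anti-PD-L1 it went from 378 to 613 without both libraries that stand apart. The interaction went from 0 to 24 with DESeq2, 37 without a filter, 35 with the covariate and 65 without both libraries, and minP1 against control from 0 to 51 without a filter.

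With the replicate block 3 members were called in anti-PD-L1 against control, 3 in the combination against minP1 (2 without it; Fth1 was added at -2.14 ± 0.73, adjusted p = 0.0345) and 2 in the combination against anti-PD-L1, and over all genes 173 in the former and 16 in the interaction. The labels give no meaning to shared replicate numbers, and same-numbered libraries correlated at -0.12 to 0.20, over 0.1 in 9 of 18 pairs, with 7 of 12 libraries best matched by their own number, so they were not taken as paired.

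These values, none of which passed, reversed in direction: Mt2 in the combination against control without combination replicate 3 (-0.16, and up to 0.997 with another library left out) and against minP1 with the covariate (0.44), and, in the interaction, Fth1 at equal depth (0.93) and with a library left out (-0.89 to 0.77) and Tfrc without a filter (-0.0061) and with a library left out (-0.090 to 0.47). Ftl1 against control, described only, was near 0 and also changed sign in minP1 (to -0.13 without control replicate 2) and in anti-PD-L1 (to -0.14 without that library). The cause was not tested. All ratio differences moved by less than their spread. No interaction can be fitted with only the groups compared. Depth limits Fth1, Slc11a1 and Slc40a1 most.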
